A study of Mus musculus with 6 samples.

Results

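Among the autosomal 1 kb tiles of this methylome of mouse neonatal male germ cells, 2083 tiles differed by more than 50 percentage points of CpG methylation between the highest and the lowest of the 4 control pups. They were 0.708% of the 294189 tiles that had 3 or more CpGs and 15 or more calls in each control, and the table holds 2046691 tiles in all. Only the Tex15WT and Tex15HT pups entered the choice, so the wide spread among those 4 is given as a description without a test, and only the Tex15KO values and other readouts are independent of it. The study sequenced bisulfite-treated DNA of whole genomes from 6 male pups at postnatal day 2.5, with 2 pups of each genotype. Tex15KO pups lack a working Tex15 on both alleles (Tex15-/-), Tex15HT pups carry 1 intact allele (Tex15+/-), and Tex15WT pups carry both (Tex15+/+). All came from matings between heterozygotes on a mixed strain background, and their germ cells were sorted by flow cytometry for green fluorescence of Oct4-GFP, a reporter of a pluripotency gene that germ cells keep active. Each library holds about 10 ng of DNA of 1 pup, so a library is 1 animal. The table holds no expression markers, so the purity of the sort was not checked.

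DNA methylation in mammals sits mainly on cytosines followed by guanine. Male germ cells of the mouse erase it in the embryo and lay it down again with de novo methyltransferases from the fetal stage onwards, so that most of the genome is highly methylated around birth, while CpG islands at promoters mostly stay unmethylated. Retrotransposons depend on a further route, in which PIWI proteins and their small RNAs guide methylation to transposon copies, and TEX15 is a nuclear protein of that route in the mouse.

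Methylation here is the share of methylated calls among all calls on both strands of a tile, in percent, and differences are in percentage points. Tile positions are on mm9. Calls per library ranged from 27495658 in Tex15KO 3 to 52935635 in Tex15KO 16, with 33019847 to 40876698 in the controls. Tex15KO 3 stood apart from the other 5 libraries. In it 74.4% of the table's cytosines had no call, against 1.71% to 10.2% elsewhere, and 96.5% of its cytosines with 6 to 10 calls were methylated in all calls or in none, against 57.8% to 68.3% elsewhere. Its values are therefore given apart from those of Tex15KO 16 throughout. Intervals are Wilson 95% intervals that count each call as independent. Calls on neighbouring CpGs of the same read and reads copied by PCR are not independent. The intervals are therefore too narrow even for counting error, and they do not cover other sources of error.

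In 23 of the 2083 variable tiles (1.10%) part of an annotated promoter could be placed by the spacing of its CpGs. The 4 printed here were chosen after their values were seen, because together they hold the main patterns: 1 pup high, 1 pup low, levels spread over all 4 controls, and a promoter near 0%, where it was read, inside a tile that varied. Each sequence runs from 250 bases before to 50 bases after the gene start, is RefSeq's on GRCm38.p6, and reads 5′ to 3′ on the strand of the gene, with the CpGs that matched the table in capitals. Tnfaip6 lies at chr2:52037863-52038162 (plus strand), Ak1 at chr2:32625187-32625486 (plus strand), Gramd1c at chr16:44016387-44016686 (minus strand) and Npepl1 at chr2:174110101-174110400 (plus strand).
Tnfaip6: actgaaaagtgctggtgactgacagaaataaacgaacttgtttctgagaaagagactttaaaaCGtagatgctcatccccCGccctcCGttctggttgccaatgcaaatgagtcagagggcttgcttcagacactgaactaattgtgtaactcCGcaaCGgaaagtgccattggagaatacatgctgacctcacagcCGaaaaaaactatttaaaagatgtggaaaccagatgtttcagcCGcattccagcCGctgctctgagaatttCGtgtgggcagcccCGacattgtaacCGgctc
Ak1: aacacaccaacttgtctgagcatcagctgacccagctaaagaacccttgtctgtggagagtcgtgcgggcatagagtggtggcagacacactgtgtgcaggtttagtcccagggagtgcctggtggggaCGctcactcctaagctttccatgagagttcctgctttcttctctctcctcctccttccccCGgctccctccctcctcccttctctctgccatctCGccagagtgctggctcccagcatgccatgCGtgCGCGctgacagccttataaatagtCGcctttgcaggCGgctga
Gramd1c: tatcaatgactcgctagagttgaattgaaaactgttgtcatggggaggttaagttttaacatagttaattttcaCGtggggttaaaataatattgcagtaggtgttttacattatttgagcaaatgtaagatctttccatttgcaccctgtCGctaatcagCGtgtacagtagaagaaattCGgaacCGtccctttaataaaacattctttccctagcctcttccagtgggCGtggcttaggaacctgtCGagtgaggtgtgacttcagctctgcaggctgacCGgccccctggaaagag
Npepl1: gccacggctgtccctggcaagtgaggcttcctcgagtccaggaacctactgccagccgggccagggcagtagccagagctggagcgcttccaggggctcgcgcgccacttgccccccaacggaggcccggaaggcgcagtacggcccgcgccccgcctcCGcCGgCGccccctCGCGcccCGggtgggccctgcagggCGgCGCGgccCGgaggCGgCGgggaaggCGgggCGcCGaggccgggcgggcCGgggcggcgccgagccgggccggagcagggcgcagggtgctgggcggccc

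The Tnfaip6 promoter, of the gene of a secreted protein that binds hyaluronan in inflammation, had its high value in 1 pup and at 3 CpGs. Its 11 matched CpGs, all in tile chr2:51893001-51894000 (mm9), were at 25% of 8 calls and 1.69% of 59 calls in Tex15KO 3 and 16, at 9.09% of 22 and 4.26% of 47 in Tex15HT 7 and 18, and at 1.67% of 60 in Tex15WT 8, but at 80.9% of 68 in Tex15WT 9. In Tex15WT 9 the CpGs at bases 252, 269 and 283 of the sequence had 18, 18 and 19 calls, of which 18 each were methylated, while its other 8 CpGs had 0 to 4 calls each, with 1 of 13 calls methylated. The high value of the promoter thus rested on 3 neighbouring CpGs that were read far more often in this pup. In the other pups the same CpGs had 0 to 7 calls. The whole tile, with calls beyond the promoter, was also high in Tex15WT 9, at 70.6% of 153 calls. There the other controls were at 21.1% and 8.43% in Tex15HT 7 and 18 and at 4.08% in Tex15WT 8.

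At Ak1, the gene of an adenylate kinase that balances adenine nucleotides, 1 pup was low. The 8 matched CpGs had no call in Tex15KO 3 and stood at 76.4% of 55 calls in Tex15KO 16, at 100% of 19 and 88.9% of 18 in Tex15HT 7 and 18, at 95.8% of 24 in Tex15WT 8 and at 37.1% of 35 in Tex15WT 9. Tex15WT 9 was also the lowest over the whole tile chr2:32480001-32481000, with 47.6%, against 89.7% to 100% in the other controls. For Gramd1c, which encodes a sterol transfer protein of the endoplasmic reticulum, the 8 matched CpGs were at 100% of 48 calls and 67.2% of 67 calls in Tex15KO 3 and 16, at 9.68% of 31 and 5.26% of 19 in Tex15HT 7 and 18, and at 62.5% of 32 and 22.2% of 27 in Tex15WT 8 and 9. Both Tex15KO pups were above all 4 controls here, and both Tex15HT pups were below both Tex15WT pups. In Tex15KO 3, however, only the CpGs at bases 152, 162, 182 and 188 had calls, 12 each. Tex15KO 16 was close to Tex15WT 8, and over the whole tile they stood at 71.9% and 71.4%. The tile was not called in the test of Tex15KO against controls described further on.

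Npepl1, the gene of an aminopeptidase-like protein, had a promoter near 0%, where it was read, in a tile that varied. Tile chr2:173935001-173936000 stood at 0% of 73 and 5.95% of 84 calls in Tex15KO 3 and 16, at 3.39% of 59 and 1.15% of 87 in Tex15HT 7 and 18, and at 62.5% of 40 and 6.85% of 73 in Tex15WT 8 and 9, so that Tex15WT 8 alone was high. The 16 matched promoter CpGs, of 39 in the window, were at 0% in both Tex15KO pups and both Tex15HT pups. They were at 1.96% of 51 calls in Tex15WT 9 and at 0% of only 9 calls in Tex15WT 8. Those 9 calls lay at the CpGs from base 160 to base 176, with 1 or 2 calls each. The matched CpGs from base 181 to base 250 had 0 calls in Tex15WT 8. The promoter was thus hardly read in the pup that was high over the tile. Promoters of Dpp3, the gene of a dipeptidyl peptidase, and of Krtcap3 were also low, while their tiles spanned 54.1 and 56.6 points among the controls. The 11 matched Dpp3 CpGs, of which 4 lie in the tile, were at 0% in both Tex15KO pups. They were at 0% and 1.72% in Tex15HT 7 and 18, and at 8.57% of 35 calls and 0% in Tex15WT 8 and 9. The 4 in the tile were at 0% in every library, with 7 calls in Tex15WT 8, the pup highest over the tile. The 8 matched Krtcap3 CpGs were at 0% to 7.69% in the 5 libraries with calls, but Tex15WT 9, the pup highest over the tile, had only 3 calls there. Promoters were placed in 2.99% of the other tiles that met the minimums and in 1.08% of those whose controls averaged 20% to 80%, so the variable tiles held them about as often as tiles of intermediate methylation.

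The range over the 4 controls, which chose the tiles, had a median of 55.3 points among the 2083 variable tiles, with quartiles at 52.5 and 60 points. Over all 294189 tiles its median was 13.0 points, its 90th percentile 28.5 points and its 99th percentile 47.6 points. Most variable tiles lay close to the limit: 511 exceeded 60 points, 118 exceeded 70, 21 exceeded 80 and 4 exceeded 90. In 97 tiles the lowest control was under 20% and the highest over 80%. The intervals of the highest and the lowest control, which count each call as independent, were apart in all 2083. The choice itself largely fixes this.

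Tiles on either side of the limit had similar values. Just inside were chr4:151111001-151112000 at 50.04 points, chr4:107113001-107114000 at 50.04 and chr11:44574001-44575000 at 50.05. The 192 tiles at exactly 50 points stayed outside, among them chr1:69492001-69493000, chr18:62161001-62162000 and chr18:80806001-80807000. At chr4:107113001-107114000 Tex15WT 9 had 47.9% against 91.3% to 97.96% in the other controls, and at chr18:62161001-62162000, just outside, Tex15WT 9 had 46.2% against 65.0% to 96.2%.

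Deep tiles show the variation with the least counting error, so the 8 variable tiles with the highest count in their least-read control are given in full. With a mean over CpGs in place of summed calls, 5 of these 8 ranges, given beside the tiles, fell under 50 points. The deepest, chr14:43986001-43987000 with 13 CpGs, stood at 0% of 110 calls and 20.1% of 169 in Tex15KO 3 and 16, at 69.0% of 84 and 30.5% of 164 in Tex15HT 7 and 18, and at 67.5% of 154 and 87.7% of 146 in Tex15WT 8 and 9. Its highest control, Tex15WT 9, had an interval of 81.4% to 92.1% and its lowest, Tex15HT 18, of 24.0% to 37.9%. Both Tex15KO pups lay below all 4 controls.

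A steeper contrast with the knockouts appeared at chr13:100994001-100995000, a tile of 25 CpGs. It was at 4.77% of 377 calls and 2.00% of 100 calls in Tex15KO 3 and 16, at 72.9% of 85 and 41.1% of 95 in Tex15HT 7 and 18, and at 72.3% of 83 and 94.7% of 76 in Tex15WT 8 and 9. The 4 controls spread over 53.7 points and lay above both knockouts. The strands of Tex15KO 3 differed, with 2.18% of 367 calls on the plus strand and 100% of 10 calls on the minus strand, while Tex15KO 16 had 2.33% of 86 and 0% of 14. With a mean over CpGs the controls spread over 37.7 points, and without the cytosines of highest coverage over 45.03 points, both under the limit.

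At 3 of the 8 tiles a single control stood high. Tile chr4:151111001-151112000 had 11.1% and 9.35% in Tex15KO 3 and 16, 12.3% and 1.35% in Tex15HT 7 and 18, and 9.86% and 51.4% in Tex15WT 8 and 9. Tex15WT 9 alone was raised there, with an interval of 40.1% to 62.6% on 72 calls, while the other 5 libraries lay between 1.35% and 12.3%. Tile chr5:121112001-121113000 had 0% and 27.8% in Tex15KO 3 and 16, 36.1% and 23.6% in Tex15HT 7 and 18, and 10.8% and 64.6% in Tex15WT 8 and 9 (range 41.3 points with a mean over CpGs). Here Tex15WT 9 was again the highest, but the other controls were themselves spread between 10.8% and 36.1%. Tile chr15:95778001-95779000 had 82.0% and 46.9% in Tex15KO 3 and 16, 74.3% and 31.2% in Tex15HT 7 and 18, and 33.3% and 19.4% in Tex15WT 8 and 9, so that Tex15HT 7 was the high control (42.5 points with a mean over CpGs).

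The last 3 of the 8 were graded rather than split. Tile chr4:141034001-141035000 had 28.3% and 73.5% in Tex15KO 3 and 16, 55.7% and 31.7% in Tex15HT 7 and 18, and 68.5% and 83.9% in Tex15WT 8 and 9 (44.5 points with a mean over CpGs). Tile chr8:119314001-119315000 had 97.4% and 66.4% in Tex15KO 3 and 16, 11.3% and 66.3% in Tex15HT 7 and 18, and 44.6% and 33.3% in Tex15WT 8 and 9 (42.8 points with a mean over CpGs, 46.1 with CpGs read in each control). Tile chr3:87608001-87609000 had 100% and 51.8% in Tex15KO 3 and 16, 87.3% and 65.6% in Tex15HT 7 and 18, and 53.3% and 31.5% in Tex15WT 8 and 9. Tex15KO 16 lay within the range of the controls in the first and the last of these, and level with the highest control, Tex15HT 18, at chr8:119314001-119315000. Which pup was highest changed from tile to tile: over the 8 tiles Tex15WT 9 was the highest control at 5, Tex15HT 7 at 2 and Tex15HT 18 at 1.

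**Figure D1:**
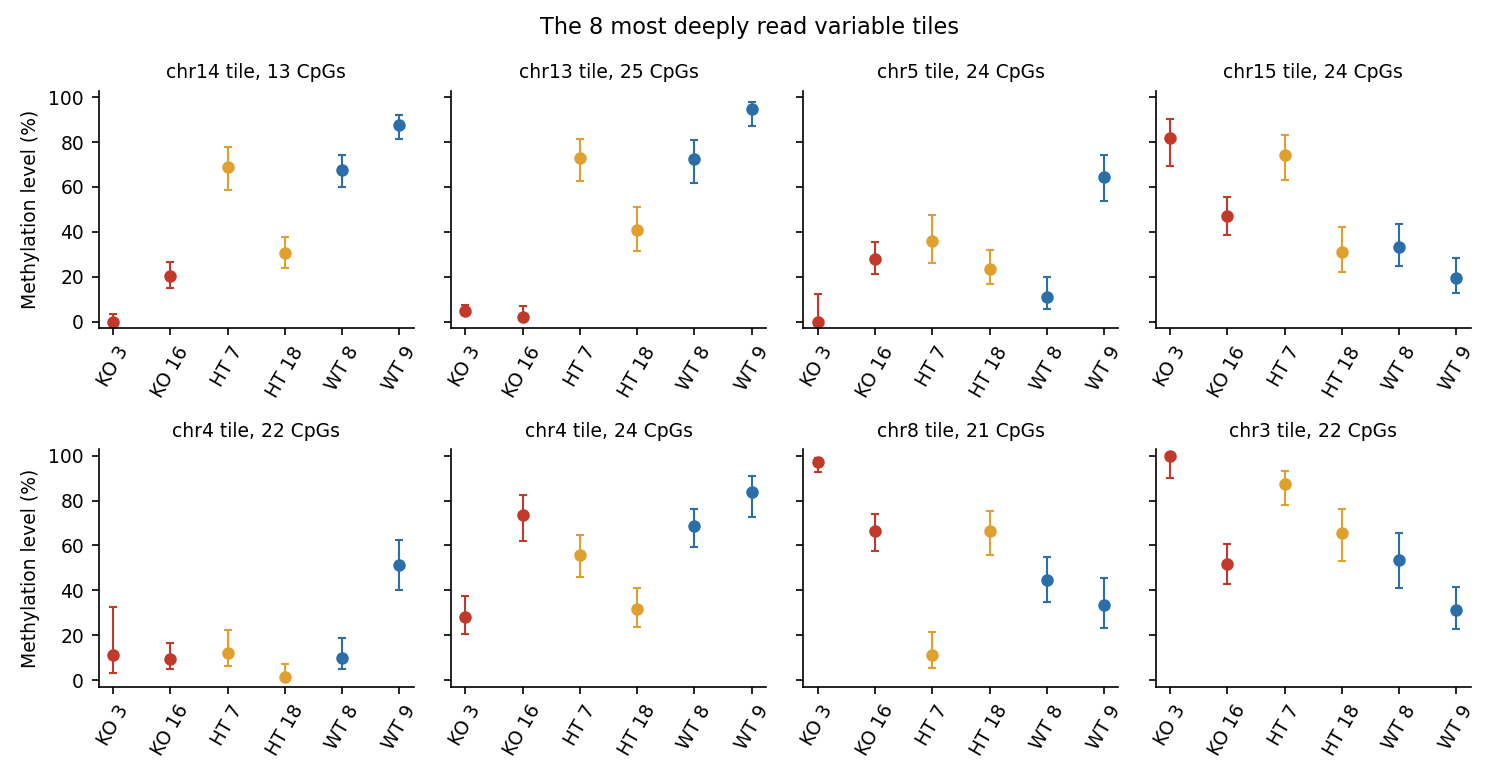
Methylation (percent of calls, vertical axis) of the 8 variable tiles with the most calls in their least-read control, 1 panel per tile. Each pup has 1 point, and bars are Wilson 95% intervals, which count each call as independent and are therefore too narrow. Tex15KO pups are on the left, then Tex15HT and Tex15WT; in the panel of the deepest tile Tex15WT 9 is at 87.7% and Tex15HT 18 at 30.5%, and their bars are apart.

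The widest ranges among the 182 variable tiles with 30 or more calls in each control were 72.7 to 74.4 points. At chr5:104907001-104908000 the levels were 100% of 15 calls and 52.8% of 108 in Tex15KO 3 and 16, 26.7% of 30 and 55.3% of 85 in Tex15HT 7 and 18, and 11.4% of 44 and 85.7% of 49 in Tex15WT 8 and 9. The lowest and the highest control were thus both Tex15WT. At chr8:32211001-32212000 the split followed genotype, with 20.9% of 43 calls and 11.3% of 62 in Tex15HT 7 and 18, and 70.1% of 87 and 85.4% of 41 in Tex15WT 8 and 9. There Tex15KO 16 was at 6.67% of 75 calls and Tex15KO 3 at 0% of 4 calls.

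The other 4 of the widest tiles had 1 pup apart at one end or both. Tile chr14:54182001-54183000 had 28.6% in Tex15KO 16, 20.7% and 54.2% in Tex15HT 7 and 18, and 94.9% and 37.0% in Tex15WT 8 and 9. Tile chr12:79050001-79051000 had 59.1% in Tex15KO 16, 50% and 40% in Tex15HT 7 and 18, and 82.5% and 9.68% in Tex15WT 8 and 9. At chr3:141847001-141848000 and chr19:41036001-41037000 Tex15WT 9 was at 73.5% and 72.7%, while the other controls were at 0% to 24.4% and at 0% to 37.5%, and Tex15KO 16 was at 21.6% and 9.52%. Tex15KO 3 had 0 to 15 calls in these 6 widest tiles.

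Over all 2083 tiles each control was the extreme one often. Tex15HT 7 was highest in 574 tiles and lowest in 513, Tex15HT 18 in 426 and 382, Tex15WT 8 in 509 and 500, and Tex15WT 9 in 574 and 688. Placing the split at the largest gap between neighbouring levels left 1 control low in 969 tiles (46.5%), 2 against 2 in 336 (16.1%) and 1 control high in 778 (37.4%). Tex15WT 9 was the lone low pup in 458 tiles, against 202 for Tex15HT 7, 188 for Tex15WT 8 and 121 for Tex15HT 18. It was also the lone high pup in 330, against 178 for Tex15WT 8, 144 for Tex15HT 7 and 126 for Tex15HT 18. Without Tex15WT 9 the same limit, set over the other 3 controls, gave 1131 tiles, and without any other 1 control it gave 1552 to 1581.

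Genotype did not order the controls in most of these tiles. Both Tex15HT pups lay above both Tex15WT pups in 356 tiles (17.1%) and below both in 313 (15.03%), while the other tiles that met the minimums had 18.4% and 12.2%. Of the 336 tiles split 2 against 2, both Tex15HT pups were the low pair in 52 and both Tex15WT pups in 46, and each of the 4 mixed pairs was low in 57 to 64. The median absolute difference was 21.7 points between the 2 Tex15HT pups and 38.4 points between the 2 Tex15WT pups. Between genotypes it was 21.6 points for Tex15HT 18 and Tex15WT 8, 23.9 for Tex15HT 7 and Tex15WT 8, 33.3 for Tex15HT 18 and Tex15WT 9 and 37.3 for Tex15HT 7 and Tex15WT 9. Pairs with Tex15WT 9 were the widest, within and between genotypes alike. Mean levels over the tiles were 55.4% in Tex15HT and 54.1% in Tex15WT.

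The variable tiles had intermediate methylation. The mean of the 4 controls was between 20% and 80% in 1903 of them, above 80% in 138 and below 20% in 42, and 4.09% of all tiles in the middle class were variable, against 0.0682% of the high and 0.0925% of the low class. Because a tile can span 50 points among 4 pups more easily when its mean is intermediate, the 44615 other tiles whose controls averaged 20% to 80% are set beside them below. No test was made between these sets of tiles.

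In the knockouts the tiles had mean levels close to those of the controls, and a spread that differed by library. Tex15KO 3 averaged 56.1% ± 39.3 (SD over its 1074 tiles with 15 or more calls) and Tex15KO 16 averaged 53.6% ± 27.5 (SD, 2076 tiles). The controls averaged 55.0% ± 31.3 and 55.9% ± 28.5 in Tex15HT 7 and 18 and 55.2% ± 29.3 and 52.9% ± 23.8 in Tex15WT 8 and 9 (SD, 2083 tiles each). The level was between 20% and 80% in 34.1% of the tiles in Tex15KO 3 and in 63.8% in Tex15KO 16, against 53.3% and 60.5% in Tex15HT 7 and 18 and 59.4% and 76.6% in Tex15WT 8 and 9. Tex15WT 9, the pup most often apart, was thus the one most often at an intermediate level.

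**Figure D2:**
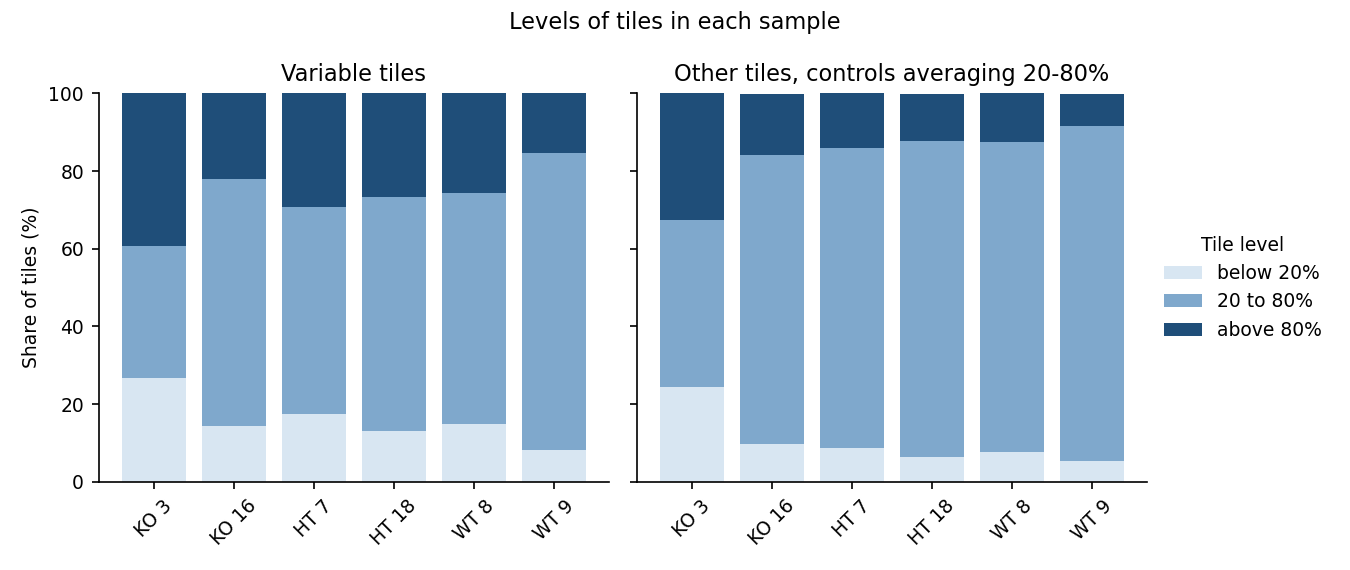
Share of tiles (percent, vertical axis) at levels below 20%, from 20% to 80% and above 80%, stacked for each of the 6 libraries, for the variable tiles (left) and the other tiles whose controls averaged 20% to 80% (right). The middle class is smallest in Tex15KO 3 (34.1% and 42.9%) and largest in Tex15WT 9 (76.6% and 86.4%).

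Tex15KO 16 lay inside the range of the controls in 1813 of 2076 variable tiles (87.3%), below all 4 in 174 (8.38%) and above all 4 in 89 (4.29%). In the other tiles with intermediate controls it was inside in 63.7%, below in 17.2% and above in 19.2%, where the range to fall into was narrower. It was 30 or more points below all 4 controls in 9 variable tiles (0.434%) and that far above in 0, against 0.657% and 0.0401% of the other tiles and 1.82% and 0.189% of those with intermediate controls. The choice in part fixes these small shares. The lowest and the highest control averaged 25.01% and 82.3% in the variable tiles, which leaves little room for a value 30 points outside them. In the other tiles with intermediate controls they averaged 41.1% and 65.95%. The shares therefore do not show that Tex15KO 16 departed less at the variable tiles. The median distance of Tex15KO 16 was 13.0 points from Tex15HT 18, 16.1 from Tex15HT 7, 17.2 from Tex15WT 8 and 29.3 from Tex15WT 9. The choice used the control values in these distances. In the other tiles with intermediate controls the distances were 9.86, 10.5, 10.6 and 11.8 points in the same order. Tex15KO 3 lay inside in 527 of 1074 tiles, below in 265 (24.7%) and above in 282 (26.3%), against 21.3% below and 31.4% above in the other tiles and 35.7% and 42.2% in those with intermediate controls. In the 1067 tiles read in both, the 2 knockouts differed by a median of 21.2 points and by over 50 points in 134 (12.6%). The other tiles with intermediate controls gave 21.5 points and 11.6%. The knockout pair was not used in the choice, and its distance was close to that value. The 6 pairs of controls, which the choice did use, had medians of 21.6 to 38.4 points in the variable tiles and of 10.8 to 12.1 points in the others. The knockout pair cannot be set against them, because it holds Tex15KO 3. That library was at exactly 0% or 100% in 43.6% of the variable tiles and 34.9% of the others. In Tex15KO 16 these shares were 2.22% and 0.620%.

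Knockout against controls was tested on the methylated and unmethylated counts of each tile with edgeR's quasi-likelihood test, over 330110 tiles with 10 or more calls in each of the 6 libraries, with Benjamini-Hochberg adjustment. Of all tested tiles 0.0379% were called lower in Tex15KO and 0.000606% higher, and of the 1238 variable tiles tested 1 was called lower and 0 higher. Before adjustment, 68 variable tiles (5.49%) had p under 0.05 with lower levels in Tex15KO and 28 (2.26%) with higher levels, where the shares of all tested tiles were 1.73% and 1.40%. Both Tex15KO pups lay below all 4 controls in 72 variable tiles (5.82%), against 4.32% of all tested tiles, and above all 4 in 33 (2.67%), against 8.24%. With 15 or more calls in both knockouts the shares were 6.19% below and 2.16% above in the variable tiles, against 9.20% and 10.1% in the other tiles with intermediate controls, whose ranges were narrower. The estimated spread was shared over all tiles, so these p-values do not measure the spread of the pups at a single tile, which is wide here by choice.

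The called tile was chr13:100994001-100995000, described above among the deepest. Its log2 fold change in the methylated over unmethylated ratio was -6.32, with an edgeR adjusted p of 0.0073 and a limma adjusted p of 0.0106. In it Tex15KO 3 had 377 calls, against 76 to 100 in the other 5 libraries. Leaving out 1 library at a time gave edgeR adjusted p-values from 1.16e-05 to 0.632 and kept the call in 2 of 6 cases, without Tex15KO 3 and without Tex15KO 16, but not without any 1 of the controls. The log2 fold change was -5.71 to -7.09 with 1 control left out and -5.92 without the cytosines of highest coverage, where the edgeR adjusted p was 0.0732.

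limma on log2 ratios of the counts, each with 1 added, called 10 of the 1238 variable tiles lower (0.808%) and 0 higher, where it called 0.271% of all tested tiles lower and 0.00576% higher. Tex15KO 16 alone against the 4 controls gave 9 of the 2083 variable tiles lower (0.432%) and 0 higher with edgeR, against 0.159% of all tiles lower and 0.000533% higher, and 5 tiles were called in both ways. With 1 knockout pup, that fit takes its spread from the controls and assumes that Tex15KO 16 varies like them. The following 3, called in both ways, were named after their values were seen. Tile chr1:151929001-151930000 was at 3.33% of 30 calls and 0% of 67 in Tex15KO 3 and 16, at 82.6% and 26.8% in Tex15HT 7 and 18, and at 80.9% and 96.6% in Tex15WT 8 and 9. Tile chr8:8988001-8989000 was at 0% of 36 and 4.35% of 92 in Tex15KO 3 and 16, at 54.8% and 32.6% in Tex15HT 7 and 18, and at 64.8% and 85.7% in Tex15WT 8 and 9. Tile chr2:129280001-129281000 was at 0% of 58 and 0% of 67 in Tex15KO 3 and 16, at 33.3% and 19.6% in Tex15HT 7 and 18, and at 22.6% and 69.9% in Tex15WT 8 and 9. Each of the 3 was near 0% in both knockouts and ranged widely above that in the controls. Whether any of the 3 lies in a retrotransposon was not analysed here.

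Variable tiles became rarer with depth. By the calls of the least-read control they made up 0.904% of tiles with 15 to 19 calls, 0.683% with 20 to 29, 0.406% with 30 to 49, 0.127% with 50 to 99 and 0 of the 4073 tiles with 100 or more, which allows a share of up to 0.0737%. Within the tiles whose controls averaged 20% to 80% the shares were 5.81%, 3.75%, 1.78%, 1.03% and 0 of 383, which allows up to 0.783%. The members numbered 1208, 693, 163 and 19 in the first 4 classes. With 30 calls required in each control, the level in Tex15KO 16 averaged 41.9%. The part of counting error in the 2083 ranges was not tested.

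**Figure D3:**
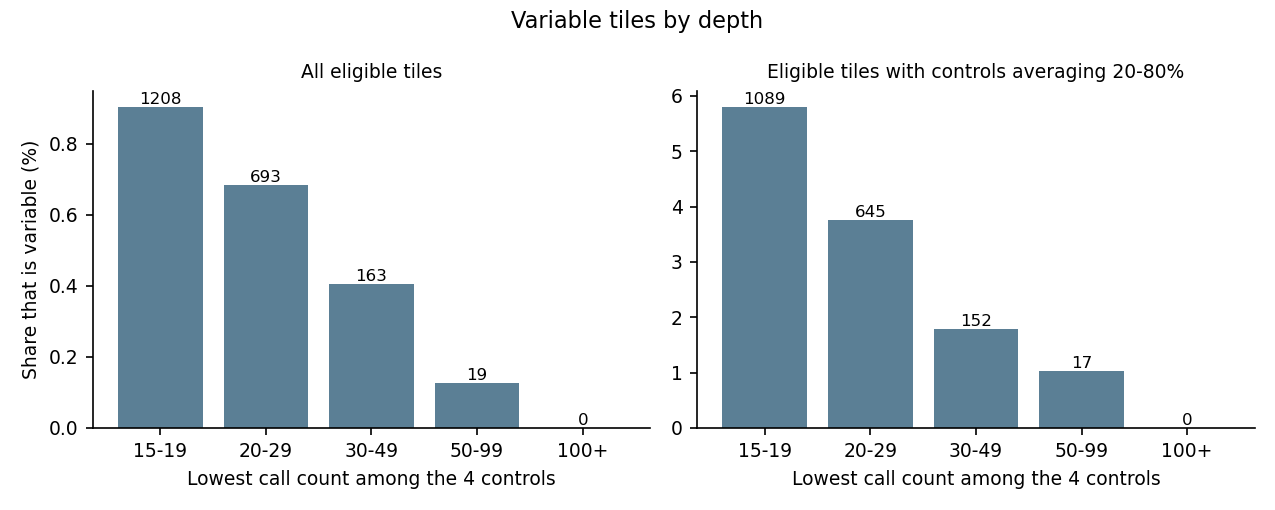
Share of tiles that were variable (percent, vertical axis) by the number of calls in the least-read control (horizontal axis, classes of calls), for all tiles that met the minimums (left) and for those whose controls averaged 20% to 80% (right), with the number of variable tiles above each bar. The share falls from class to class, to 0 at 100 or more calls.

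After bisulfite treatment the calls of the 2 strands of a tile come from separate DNA strands, so tiles chosen on one strand were read on the other. Choosing by the plus strand with 15 or more calls per control gave 1152 tiles with a range over 50 points, of which 563 could be read on the minus strand in both extreme pups. There the highest and the lowest pup stood at 78.6% and 20.05% on the plus strand, 58.5 points apart, and at 51.8% and 46.4% on the minus strand, 5.44 points apart. The direction was kept in 58.3% and a difference over 50 points in 12 tiles (2.13%). Choosing by the minus strand gave 991 tiles, of which 497 could be read, with 58.4 points on the minus strand and 3.63 points on the plus strand, 55.7% in the same direction and 10 over 50 points (2.01%). Most of the difference seen on the strand of choice was thus not seen on the other strand of the same pups. Among all tiles that could be chosen the other strand gave 0.994 and 1.04 points.

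**Figure D4:**
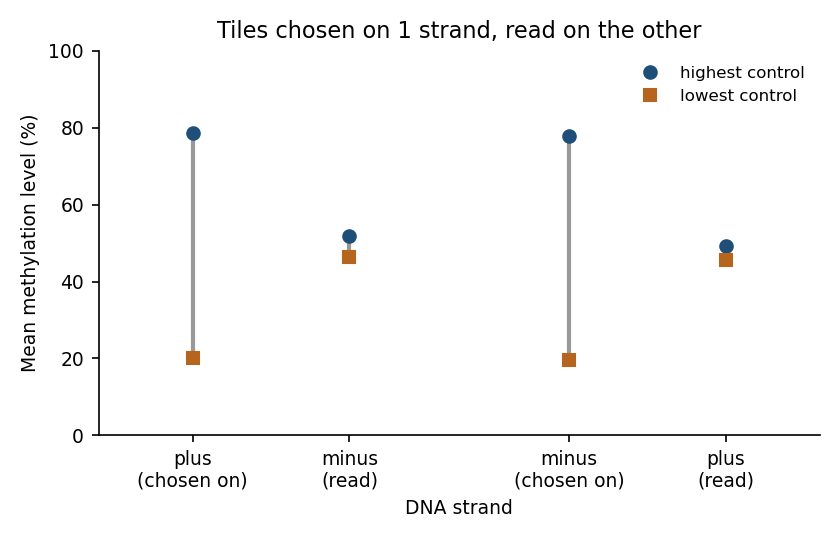
Mean methylation (percent of calls, vertical axis) of the highest and the lowest control on the strand that chose the tiles and on the other strand, joined by a line, for tiles chosen on the plus strand (left) and on the minus strand (right). The pairs of points are 58.5 and 58.4 points apart on the strand of choice and 5.44 and 3.63 points apart on the other.

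A few tiles had the wide range on both strands. Of the 135 variable tiles with 10 or more calls per strand in each control, 44 exceeded 50 points on each strand. In 11 of those the same pups were highest and lowest on both, a list drawn up after the data were seen. These tiles were chosen on the sum of the same 2 strands, so the choice in part fixes these counts. In chr8:32211001-32212000, named above for its width, Tex15HT 7 and 18 had 33.3% and 13.9% on the plus strand and 16.1% and 7.69% on the minus strand, while Tex15WT 8 and 9 had 72.7% and 100% on the plus strand and 68.5% and 78.6% on the minus strand. In chr2:167590001-167591000 Tex15WT 9 alone was low, at 33.3% of 18 calls on the plus strand and 45.5% of 11 on the minus strand, against 63.6% to 95.8% in the other controls on either strand. In chr8:119314001-119315000 Tex15HT 18 was highest on both, at 78.4% and 57.1%, and Tex15HT 7 lowest on both, at 19.2% and 5.56%. The CpGs of a tile mostly lay in its direction, which the choice in part fixes: of 10394 CpGs with 2 or more calls in both extreme pups, 8647 (83.2%) were higher in the pup with the higher tile, 1399 were equal and 348 lower.

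The difference between the extreme pups hardly reached the next tile. In the variable tile itself the highest control averaged 82.3% and the lowest 25.01%. Neighbours that were variable tiles themselves were left out. In the tile 1 kb before, the same pups differed by 3.21 points (60.1% and 56.8%, 726 tiles). In the tile 1 kb after they differed by 2.72 points (59.6% and 56.9%, 760 tiles), and at 2 to 5 kb by -0.19 to 0.99 points. With those neighbours kept, the differences at 1 kb were 3.33 points (734 tiles) and 2.86 points (768 tiles). The other tiles with intermediate controls, with all neighbours kept, gave 1.10 and 0.90 points at 1 kb. For the variable tiles with 30 or more calls in each control, a set added after the data were seen, the differences at 1 kb were 4.24 points (70 tiles) and 3.96 points (82 tiles). In that small set they ran from -3.97 points (3 kb after) to 2.52 points (3 kb before) at 2 to 5 kb, so a difference of about the same size but opposite sign occurred farther out.

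**Figure D5:**
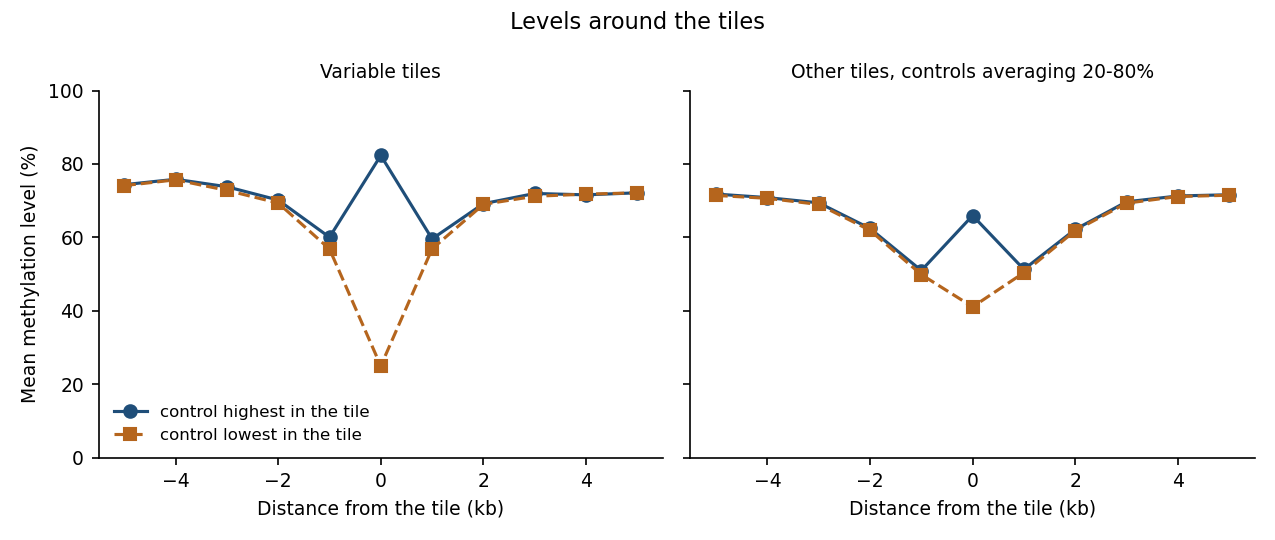
Mean methylation (percent of calls, vertical axis) of the control highest and the control lowest in a tile, against the distance from that tile in kb, around the variable tiles (left) and around the other tiles whose controls averaged 20% to 80% (right). Around the variable tiles, with neighbours that were variable themselves left out, the curves are 57.3 points apart at the tile itself. They are 3.21 and 2.72 points apart at 1 kb before and after it.

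Variable tiles seldom adjoined each other. Of the 2083 tiles 2067 stood alone and 16 formed 8 pairs, so that 0.768% adjoined another variable tile, against 0.411% of the other tiles and 0.941% of those with intermediate controls. The pair at chr4:149570001-149572000 did not vary in parallel. Its first tile had 0% and 7.08% in Tex15KO 3 and 16, 2.86% and 17.5% in Tex15HT 7 and 18, and 7.04% and 70.4% in Tex15WT 8 and 9, whereas in its second tile Tex15WT 8 was highest at 75.9% and Tex15WT 9 stood at 28.1%. At chr5:104721001-104723000 Tex15WT 9 was highest in both tiles, at 62.5% of 16 calls and 56.7% of 30, against 10.5% to 43.5% and 6.25% to 23.7% in the other controls. The ranges of this pair were 36.4 and 44.5 points with CpGs read in each control, and 27.25 and 53.6 points with a mean over CpGs. At chr18:73774001-73776000 Tex15WT 8 was lowest in both, at 36.0% and 17.2%, and the highest was Tex15HT 7 at 100% in the first tile and Tex15WT 9 at 90.7% in the second. At chr2:68283001-68285000 the highest was Tex15WT 9 at 88.2% in the first tile and Tex15HT 7 at 88.2% in the second. With CpGs read in each control, the second tiles of the pairs on chromosomes 4 and 2 also fell under the limit, at 48.1 and 48.2 points.

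The median was 9 CpGs per tile in the variable tiles, in the other tiles and in those with intermediate controls. By CpG number, 0.761% of tiles with 3 to 9 CpGs, 0.741% with 10 to 19 and 0.127% with 20 or more were variable. Among tiles with 30 or more calls in each control the shares were 0.199%, 0.434% and 0.112%. Shares by autosome ran between 0.544% on chromosome 2 and 1.09% on chromosome 14. A CpG spacing that recurred at 10 or more places of the genome, as copies of a repeat would give, was found in 36 variable tiles (1.73%), in 1.72% of the other tiles and in 0.832% of those with intermediate controls. The most-read CpG held a median of 21.1% to 22.2% of a tile's calls in the 4 controls ordered by level, and 20.7% to 21.1% in the tiles with intermediate controls. Of single cytosines with 4 to 8 calls in the variable tiles, 97.0% in Tex15KO 3 and 42.5% in Tex15KO 16 were methylated in all calls or in none. The shares were 52.9% and 46.2% in Tex15HT 7 and 18, and 48.97% and 38.8% in Tex15WT 8 and 9. In the tiles with intermediate controls they were 94.9% and 44.1%, 46.8% and 41.6%, and 44.2% and 39.1%, in the same order.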

How the data were processed

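The members, gene start windows and comparisons were chosen with earlier results of these data known. The deposited table gives, for each cytosine and library, the coverage and the counts of C and T calls (mm9, per the labels); BSMAP, Bismark and methylKit are named in the submitters' processing notes, without version or role. Per the labels' protocols, each library came from about 10 ng of DNA of 1 pup with 0.5% unmethylated lambda DNA added, and was read as paired 75-base reads. The authors' handling of duplicate reads is not given in the sources used here.

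From the deposited counts, calls of both strands were summed in 1 kb tiles from position 1. Eligible tiles were autosomal, with 3 or more CpGs and 15 or more calls in each of the 4 controls. A tile was a member when the highest minus the lowest control exceeded 50 points. Tex15KO against the mean of Tex15HT and Tex15WT was tested with edgeR 4.0.16 (quasi-likelihood, an intercept per library, methylated and unmethylated counts, 10 or more calls in each of the 6 libraries, Benjamini-Hochberg, adjusted p under 0.05), in R 4.3.3. limma 3.58.1 on log2((methylated + 1)/(unmethylated + 1)) was an alternative. Both were tried on simulated counts drawn without any spread between pups of a group. That trial cannot show how the tests behave on tiles that vary between pups. With 2 pups per genotype, p-values rest on few animals. Tex15KO levels used tiles with 15 or more calls. Neighbours within 5 kb needed 15 calls in both extreme controls, and the strand read needed 10. Around the variable tiles, neighbours that were variable themselves were left out unless stated.

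Named tiles are the 8 members deepest in their least-read control, the 6 widest with 30 or more calls in each control, up to 8 called members, the 4 longest runs, and the 3 tiles nearest each side of the limit. Others are named as chosen after their values were seen. RefSeq windows of 300 bases (GRCm38.p6) were placed by the spacing of 5 or more successive CpGs at 1 place of their chromosome. The shift between builds had to be shared by 3 or more other windows there. Of 31396 windows 9082 were placed, and no coordinates were converted. The alternatives were call and CpG minimums, the limit, tile size and borders, shared CpGs, a mean over CpGs, cytosines in the top 0.1% of coverage, and leaving out each library.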

Additional observations from a re-analysis of the deposited data

How the results depend on the processing

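The number of variable tiles moved most with the limits: 182 with 30 calls in each control, 6069 with 10 calls, 817 with 10 CpGs, 7644 over 40 points, 511 over 60 points and 451 with 5 kb tiles. It stayed within 1.5 times of 2083 with CpGs read in each control (1622), a mean over CpGs (2589), tiles with borders shifted (2173) and the top 0.1% of coverage left out (2084), and leaving out 1 control gave 1131 (without Tex15WT 9) to 1581. The count does not say which tiles: 1148 (55.1%) of the members stayed variable with CpGs read in each control, 1207 (57.9%) with a mean over CpGs and 2074 (99.6%) without the top coverage, and of the 24 named members 18, 18 and 23 did. The called tile chr13:100994001-100995000 was among those lost with a mean over CpGs and was the 1 lost without the top coverage. With 30 calls in each control the level was 50.4% in Tex15KO 3 and 41.9% in Tex15KO 16, and with a mean over CpGs 57.9% in Tex15KO 3. Leaving out 1 control gave 54.1% to 57.8% in Tex15KO 3 and 52.2% to 55.6% in Tex15KO 16. Tiles chosen on the plus strand differed on the other by 3.74 points when chosen with 10 calls and by 7.31 points with 20. Neighbours at 1 kb of tiles with 30 calls in each control, added after seeing the data, differed by 4.24 and 3.96 points. Members called lower in Tex15KO numbered 10 with limma, 2 with 30 calls in each library, 0 without the top coverage and 0 to 164 with 1 library left out: 9 without Tex15KO 3, 164 without Tex15KO 16 and 0 without any 1 control. Members called higher numbered 0 to 147 with 1 library left out, with 147 without Tex15KO 16. Over all tested tiles the number called lower also rose without Tex15KO 3 or without Tex15KO 16, and fell without any 1 control. The number called higher over all tested tiles rose without Tex15KO 16 too. In that fit the share called was larger among the members than over all tested tiles, both lower and higher. With 30 calls in each library 1.94% of the members tested were called lower, against 0.27% of all tested tiles. Without the top coverage the shares were 0% and 0.0231%. The counts of members therefore do not show by themselves a change particular to the members, and the differences in shares were not tested. The fits with 1 Tex15KO library assume that it varies like the other groups. The cause of these shifts was not tested. No paired analysis was possible because the genotypes share no replicate number. Depth limits all of this: the median member had 19 calls in its least-read control.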
